A study of Mus musculus with 2 samples.

Results

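The genes of MHC class II antigen presentation were followed in α4β7-positive lymphoid progenitors (αLPs) of mouse fetal liver and adult bone marrow. The members were 8 of the 27998 genes in the count matrices, taken by symbol: Cd74, H2-Aa, H2-Ab1, H2-Eb1, H2-DMa, H2-DMb1, H2-DMb2 and Ciita. All 8 were found in both matrices. There was 1 droplet single-cell RNA sequencing library per tissue, each from untreated wild-type B6 mice. The sort kept cells that carried CD45, CD127 and α4β7 and lacked lineage markers, Flt3 and CD25. Fetal livers were taken at E14.5, and the bone marrow is called adult in the design text. The labels of both samples, the fetal one included, give an age of 6 to 8 weeks, and both carry the same batch label. The sources used here do not give the number of animals pooled or the antibodies of the lineage cocktail. Tissue, age and library cannot be told apart in this design, and no test between tissues was possible.

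MHC class II molecules are pairs of an α and a β chain that carry peptides to the cell surface, where CD4 T cells read them. The invariant chain, encoded by Cd74, holds the new pair and leads it to the endosome, and the H2-DM heterodimer then exchanges the invariant chain's last fragment for a peptide. Ciita is the coactivator that switches the group on, through the RFX, CREB and NF-Y factors bound at the X and Y boxes of the promoters. Dendritic cells, macrophages and B cells are the usual carriers, and among innate lymphoid cells (ILCs) class II is best known from ILC3 and lymphoid tissue inducer (LTi) cells. B6 mice carry the b haplotype, in which H2-Aa and H2-Ab1 form the surface molecule I-A, while the E β chain gene H2-Eb1 is transcribed without a functional α partner.

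Of the members, 6 lie in the class II region of chromosome 17 and Ciita lies on chromosome 16 (GRCm38, GENCODE M21). H2-DMa spans chr17:34119541-34139101, H2-DMb2 chr17:34143307-34151555, H2-DMb1 chr17:34153072-34160230, H2-Ab1 chr17:34257689-34269419, H2-Eb1 chr17:34305867-34316674 and, on the minus strand, H2-Aa chr17:34282744-34287823. RefSeq promoters (GRCm38.p6) were matched for 5 of the 8 members. The 4 stretches below run from 140 to 41 bases before the start site and are shown because they carry the shared promoter elements through which the group is switched on. Capitals mark the Y box core TGATTGG, the X box part GATGATG and the cAMP response element TGACGTCA, each searched on both strands.
H2-Eb1, chr17:34305727-34305826, plus strand: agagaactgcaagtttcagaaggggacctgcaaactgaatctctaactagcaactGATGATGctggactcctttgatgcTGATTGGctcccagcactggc
H2-DMb1, chr17:34153051-34153150, plus strand: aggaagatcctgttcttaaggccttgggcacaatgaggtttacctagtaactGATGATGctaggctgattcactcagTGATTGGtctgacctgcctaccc
H2-DMb2, chr17:34145109-34145208, plus strand: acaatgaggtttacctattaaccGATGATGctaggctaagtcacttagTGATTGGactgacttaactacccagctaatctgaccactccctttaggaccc
H2-Aa, chr17:34287864-34287963, minus strand: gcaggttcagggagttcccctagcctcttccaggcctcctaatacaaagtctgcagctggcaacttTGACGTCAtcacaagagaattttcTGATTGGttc

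The Y box core stood in these 4 promoters and in 7.80% of all 32544 promoters of the same length of 300 bases, and it overlaps the shorter CCAAT, read on the other strand. GATGATG was found in 3.46% and TGACGTCA in 1.80% of all promoters. GATGATG followed by TGATTGG within 30 bases on one strand occurred in 8 of 32544 promoters (0.0246%), and H2-Eb1, H2-DMb1 and H2-DMb2 were 3 of those 8, with gaps of 17, 18 and 18 bases. The other 5 were Clasp2, Gla, Hnrnph2, Tmsb15b2 and Tmsb15l. None of the 3 elements was found in the 2 H2-DMa promoters in the table, which says only that these letters are not in those windows. These matches describe the sequence and are not evidence of binding.

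Of 8946 fetal liver barcodes 8583 were kept, with 91285900 UMIs (counts of distinct tagged RNA molecules), and of 7367 bone marrow barcodes 7258, with 29941097 UMIs. Kept cells had at least 500 genes and at most 10% mitochondrial UMIs. Their median was 9294 UMIs in fetal liver against 3447.5 in bone marrow, a 2.70-fold gap in depth. The libraries share 19 barcodes. Of the gate genes, Il7r (CD127) had a UMI in 63.9% of fetal liver cells and 68.5% of bone marrow cells, Itga4 in 65.0% and 52.4%, Itgb7 in 35.2% and 21.2%, Flt3 in 1.30% and 0.468% and Il2ra (CD25) in 1.06% and 2.98%. Levels are given as UMIs per 1000000 (CPM) over the kept cells of a library, and differences as the log2 ratio, fetal liver over bone marrow, with an exact conditional 95% interval. All intervals, and the floor of 3 counts (0.0329 CPM in fetal liver, 0.10 in bone marrow), cover counting error only and not the spread between animals.

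Each of the 8 class II genes had a higher level in the bone marrow library than in the fetal liver library. The summed level was 140 CPM in fetal liver against 669 CPM in bone marrow, for a log2 ratio of -2.26 (-2.29 to -2.23). At least 10 CPM in the higher library was reached by 6 members, and all 6 were higher in bone marrow by at least 2-fold, beside 10.9% of the 6938 genes that reached this level. In the other direction 0 of the 6 passed 2-fold, beside 7.25% of genes. The median log2 ratio of the 6 was -2.56 and that of all 6938 genes was 0.01. With H2-DMb2 and Ciita, which did not reach 10 CPM, the median of the 8 was -2.32. A single bone marrow cluster of 152 cells carried much of the gap of Cd74 and the classical chains. Without it, an alternative added after the data were seen, the summed ratio was -1.28 and 5 members passed 2-fold. Cd74 then stood at -0.97, H2-Ab1 at -1.13, H2-Eb1 at -1.33, H2-Aa at -1.43 and H2-DMb2 at -0.73, while H2-DMa stood at -2.61 and H2-DMb1 at -3.32. Without LTi or ILC3-like clusters in both libraries, also added later, the summed ratio was -1.61 and 6 members passed 2-fold. There Cd74 stood at -1.38, H2-Ab1 at -1.28, H2-Eb1 at -1.65 and H2-Aa at -1.83. H2-DMb2 stood at -0.66, H2-DMa at -2.56 and H2-DMb1 at -3.18. The share of all genes past 2-fold is not given for either setting.

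**Figure D1:**
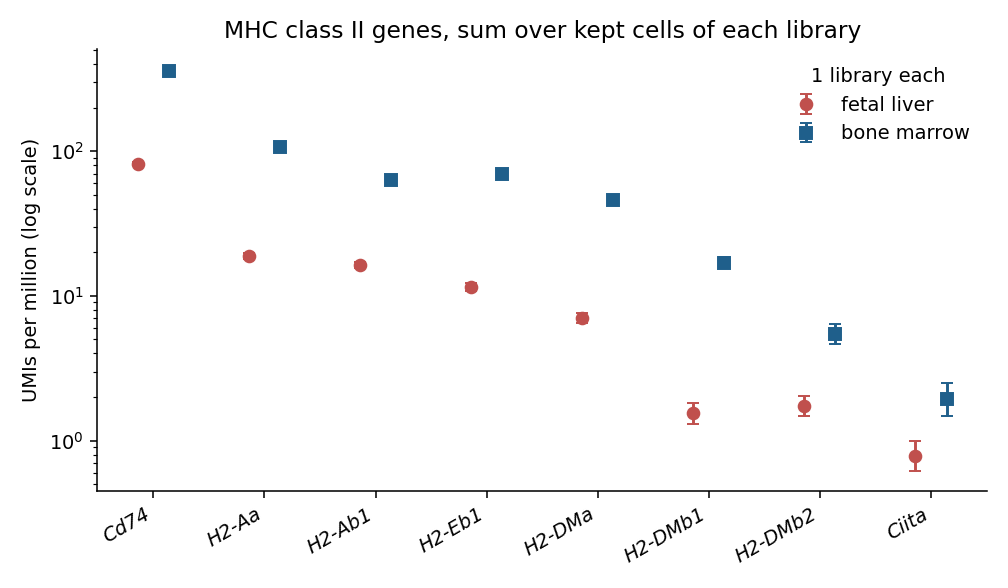
Level of each class II gene in UMIs per 1000000 (log axis) in the fetal liver library (circles) and the bone marrow library (squares), with exact 95% Poisson intervals of counting error. Every square lies above its circle, from Cd74 at 81.9 and 359 CPM to Ciita at 0.789 and 1.94 CPM, and genes are not to be ranked against each other because the counts are not scaled for length.

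Ciita, the coactivator of the group, was sparse in both libraries. It had 72 UMIs in 72 fetal liver cells (0.789 CPM) and 58 UMIs in 56 bone marrow cells (1.94 CPM), a log2 ratio of -1.30 (-1.82 to -0.77). A Ciita UMI was seen in 0.839% of fetal liver cells and 0.772% of bone marrow cells, and in 0.213% and 0.439% after every cell was thinned to 2000 UMIs. The order of the shares thus turned with depth, and no order is read from them.

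The classical chain genes were all higher in bone marrow. H2-Aa, the I-A α chain, stood at 18.7 CPM in fetal liver against 107 CPM in bone marrow, for a log2 ratio of -2.51 (-2.60 to -2.42). Its partner H2-Ab1, the I-A β chain, stood at 16.4 and 63.4 CPM, a ratio of -1.95 (-2.05 to -1.85). H2-Eb1, the E β chain, stood at 11.5 and 69.7 CPM, a ratio of -2.60 (-2.71 to -2.50). The bone marrow level was thus 3.87-fold (H2-Ab1) to 6.08-fold (H2-Eb1) the fetal liver level. Cd74, the invariant chain gene, had 7475 UMIs (81.9 CPM) in fetal liver against 10753 UMIs (359 CPM) in bone marrow, a ratio of -2.13 (-2.18 to -2.09).

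The libraries differed less in the share of Cd74-positive cells than in the Cd74 level. Cd74 was detected in 14.0% (13.3 to 14.8, Clopper-Pearson) of fetal liver and 13.6% (12.8 to 14.4) of bone marrow cells, and in 7.03% and 10.3% after thinning. Positive cells held 6.21 Cd74 UMIs on average in fetal liver against 10.9 in bone marrow. A UMI of any member was found in 25.9% of fetal liver cells and 34.7% of bone marrow cells, and in 10.2% of 8452 and 23.5% of 5923 cells after thinning.

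H2-DMa and H2-DMb1, the chains of the peptide exchange factor, were also higher in bone marrow. H2-DMa stood at 7.05 CPM in fetal liver against 45.8 CPM in bone marrow, for a log2 ratio of -2.70 (-2.84 to -2.56). It was detected in 5.55% of fetal liver cells and 15.7% of bone marrow cells, and in 1.33% and 8.36% after thinning. H2-DMb1 stood at 1.54 and 17.0 CPM, a ratio of -3.46 (-3.74 to -3.19), or 11.0-fold more in bone marrow. H2-DMb2, the second β chain gene, stood at 1.74 and 5.48 CPM, a ratio of -1.65 (-1.98 to -1.33). H2-DMb1 and H2-DMb2 are close copies: the longest coding transcripts of the pair, 1404 and 1483 bases, were 94.1% identical over 1219 aligned bases. How reads were split between them is therefore uncertain, and so is the difference between their ratios.

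The classical chains and Cd74 sat in few cells in each library. The top 1% of cells by summed class II UMIs (85 fetal liver and 72 bone marrow cells) held 47.9% of those UMIs in fetal liver against 35.6% in bone marrow. Counted from the highest cell down, 94 fetal liver cells and 116 bone marrow cells held 50% of them. Single cells reached 241 class II UMIs in fetal liver against 212 in bone marrow. For comparison, the top 1% of cells for a gene held a median of 9.92% of its UMIs over the 6119 genes with at least 10 CPM in fetal liver, with a 95th percentile of 18.4%. In bone marrow, over 6452 genes, the median was 16.7% and the 95th percentile 28.7%.

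By gene, the top 1% of cells held 48.5% of Cd74 UMIs in fetal liver against 39.8% in bone marrow. The values were 70.3% and 41.3% for H2-Aa, 38.4% and 35.7% for H2-Ab1, and 71.3% and 46.0% for H2-Eb1. All of these lay above the 95th percentile of their library. H2-DMa in bone marrow behaved unlike them. Its top 1% of cells held 14.4% of its UMIs, more than in 40.1% of genes, and H2-DMb1, at 23.2%, stood above 81.2% of genes. Taken as pairs, Cd74 with the 3 classical chains had 38.7% of its bone marrow UMIs in the top 1% of cells, and H2-DMa with H2-DMb1 had 13.4%.

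**Figure D2:**
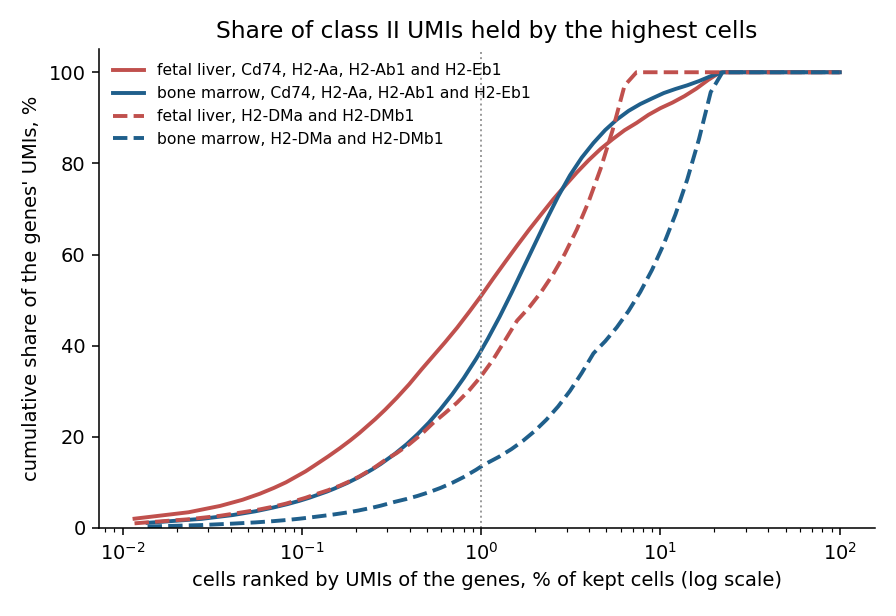
Cumulative share of UMIs (%) against the share of kept cells (%, log axis), with cells ranked from the highest down, for Cd74 with the classical chains (solid) and for H2-DMa with H2-DMb1 (dashed) in each library. At 1% of cells (dotted line) the solid curves stand at 50.7% in fetal liver against 38.7% in bone marrow, and the dashed curves at 33.1% and 13.4%. The dashed curves rest on 785 and 1879 UMIs. Low counts raise the share that the top cells must hold, so the dashed curves are not compared between libraries.

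Cells with at least 5 class II UMIs that made up at least 0.2% of their UMIs were counted as class II-high. This is a range and not a cell type. It held 165 fetal liver cells (1.92%, 1.64 to 2.24) and 393 bone marrow cells (5.41%, 4.91 to 5.96). Within 2-fold of the cut lay 76 cells above and 119 below in fetal liver, and 96 above and 67 below in bone marrow. The median depth of class II-high cells was 7417 UMIs beside 9353.5 in other fetal liver cells, and 2857 beside 3487 in bone marrow. The cut asks more class II UMIs of a deeper cell, so this order can follow from the rule.

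Most class II-high cells, chosen on a sum in which Cd74 weighs most, carried Cd74 together with classical chains. At least 4 members were detected in 78.2% of them in fetal liver against 77.6% in bone marrow. All 165 fetal liver cells and 392 of 393 bone marrow cells had Cd74, 95.2% and 92.1% had H2-Aa, 81.8% and 83.0% had H2-Ab1, and 88.5% and 80.4% had H2-Eb1. H2-DMa was seen in 35.8% and 43.3%, H2-DMb2 in 24.8% and 22.4% and H2-DMb1 in 8.48% and 26.2% of them. Ciita was seen in only 3 and 18 of them. These cells held 62.1% of all Cd74 UMIs in fetal liver against 91.1% in bone marrow, and 80.8% and 88.3% of H2-Aa UMIs. In contrast, they held 15.7% and 18.6% of H2-DMa UMIs, so most H2-DMa UMIs of both libraries lay outside them.

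Across cells, Cd74 and the classical chains were found together. Pearson's r of log-scaled levels ran from 0.74 to 0.84 between these 4 genes over 7258 bone marrow cells and from 0.55 to 0.82 over 8583 fetal liver cells. H2-DMb2 stood at 0.42 to 0.47 with them in bone marrow, while H2-DMa stood at 0.23 to 0.25 and Ciita at 0.11 to 0.12. Cells of a library share its preparation, and low counts hold r down, so these values describe the libraries and carry no test.

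To see which cells these were, each library was clustered with the class II genes left out of the variable genes. Clusters were named from marker lists by a rule set after the data were seen. One cluster stood out. Bone marrow cluster 10 had 152 cells (2.09%), held 50.2% of the class II UMIs of its library and had a summed level of 23679 CPM. All 152 cells had a class II UMI, 148 were class II-high, and the same number of cells formed the leading cluster at Leiden resolutions 0.5, 1 and 2. Cd74 was at 14206 CPM there, H2-Aa at 4007, H2-Eb1 at 2907, H2-Ab1 at 1976, H2-DMa at 240.3, H2-DMb2 at 186, H2-DMb1 at 125 and Ciita at 33.0 CPM.

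Of 13 LTi or ILC3 markers, 9 were raised in bone marrow cluster 10, among them Ccr6, Il22, Il23r, Il1r1, Lta, Tmem176a, Tmem176b and Nrp1. Class II genes took 5 of its 10 leading places, and the leading genes besides them were Prr29, Sdc4, Cd83, Gal and Ccr6. Dendritic markers came next, with 4 of 9 raised. In its 148 class II-high cells the dendritic markers Itgax, Xcr1, Clec9a and Cd209a were at 0, as were the B cell markers Cd79a, Ms4a1 and Pax5 and the monocyte or macrophage markers Csf1r and Lyz2. Batf3 had a UMI in 38.5% of them, Ccr7 in 8.78%, Fscn1 in 7.43% and Zbtb46 in 2.70%, beside Tmem176b in 99.3%, Nrp1 in 27.7% and Ccr6 in 18.2%. Cd79b, of the B lineage list, had a UMI in 25.0% and Cybb, of the monocyte or macrophage list, in 4.05%. Summed, the LTi or ILC3 list stood at 4525 CPM in these cells beside 448 CPM in bone marrow cells that were not class II-high. Some other lists stood higher in these cells as well: the dendritic list at 324 beside 36.9 CPM and the B lineage list at 116 beside 33.0 CPM. The monocyte or macrophage list stood at 33.8 beside 5.80 CPM and the erythroid list at 26.6 beside 21.5 CPM. The NK or ILC1, ILC2 progenitor, ILC progenitor, lymphoid progenitor, plasmacytoid dendritic, T, granulocyte and mast or basophil lists stood lower. The part of other cell types in the class II level of the cluster was not tested.

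Outside that cluster, class II UMIs of bone marrow lay mainly in natural killer (NK) or ILC1-like cluster 6 (1057 CPM, 17.1% of the UMIs) and in cluster 2 (703 CPM, 15.9%). Cluster 6 was led by Klrd1, Xcl1, Klrk1 and Eomes. Cluster 2 was left unnamed and was led by Tmsb15a, Gm15417, Cited4 and Ckb, with 3 of 6 ILC progenitor markers raised, the promyelocytic zinc finger gene Zbtb16 among them. Dendritic markers came next in cluster 2, with 2 of 9 raised. Class II-high cells made up 13.6% of cluster 6 and 8.73% of cluster 2. The dendritic list stood at 226 CPM in the 90 class II-high cells of cluster 6. In the 155 of clusters other than 6 and 10 it stood at 163 CPM, beside 36.9 CPM in cells that were not class II-high. The B lineage list stood at 39.0 and 30.7 beside 33.0 CPM, and the monocyte or macrophage list at 5.57 and 12.7 beside 5.80 CPM. The part of other cell types was not tested. In ILC2 progenitor-like clusters 1, 3 and 7 the summed level was 147, 144 and 265 CPM, and 0.732%, 0.767% and 1.76% of cells were class II-high.

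In fetal liver no cluster stood apart to this degree. LTi or ILC3-like cluster 1 held 28.0% of the class II UMIs at 395 CPM, and class II-high cells were 4.03% of its 1487 cells. NK or ILC1-like clusters 7, 2 and 4 stood at 395, 290 and 165 CPM, and held 19.7%, 16.8% and 17.7% of the UMIs. Cluster 2 was led by the class I genes H2-Q7, H2-Q6 and H2-K1 and by the interferon-induced gene Iigp1. B lineage-like cluster 10, with Vpreb3, Cd79a and Ebf1 in the lead, stood at 283 CPM in 188 cells. ILC2 progenitor-like clusters 5 and 8 stood at 13.6 and 16.9 CPM and had 0 class II-high cells among 976 and 667, which allows shares of up to 0.307% and 0.450%. Macrophage-like cluster 12, of 11 cells with a median of 1375 UMIs, had 0 class II UMIs, below a floor of 169 CPM.

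**Figure D3:**
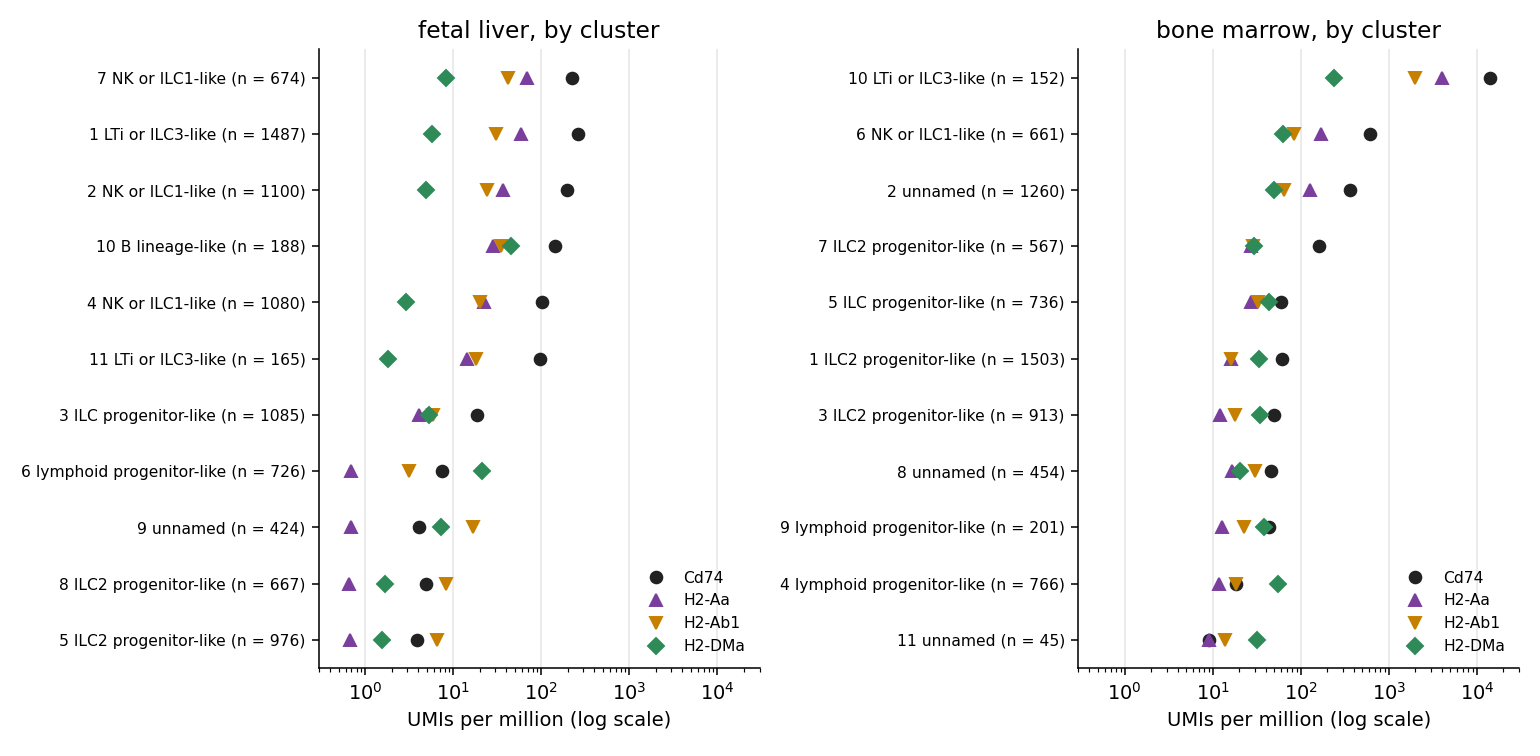
Level of Cd74, H2-Aa, H2-Ab1 and H2-DMa in UMIs per 1000000 (log axis) in each cluster of fetal liver (left) and bone marrow (right), with clusters ordered by summed class II level and cell numbers in brackets; genes at 0 and macrophage-like fetal cluster 12, which had no class II UMI, are not drawn. Bone marrow cluster 10 stands at 14206 CPM of Cd74, while H2-DMa lies between 20.7 and 62.5 CPM in every other bone marrow cluster.

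Even within the fetal clusters that led, class II UMIs came from a small part of the cells. In fetal cluster 1, 22 of 1487 cells held 50% of the class II UMIs, and in cluster 7, 13 of 674 did. In bone marrow cluster 10, 48 of 152 cells did. Of the 165 class II-high cells of fetal liver, 64 lay in LTi or ILC3-like, 86 in NK or ILC1-like and 15 in other clusters. Of the 393 in bone marrow, 148 lay in LTi or ILC3-like, 90 in NK or ILC1-like and 155 in other clusters, 110 of them in cluster 2. In the 64 fetal cells of LTi or ILC3-like clusters, 7 of 11 B lineage, 6 of 9 dendritic and 9 of 10 monocyte or macrophage markers were at 0, Cd79a, Itgax, Xcr1, Clec9a, Csf1r and Lyz2 among them. The summed dendritic list nevertheless stood at 243 CPM there, beside 57.4 CPM in fetal cells that were not class II-high, with Batf3 in 48.4% and Ccr7 in 15.6% of the 64 cells, beside 21.7% and 5.42%. The B lineage list stood at 68.4 beside 150.1 CPM, with Cd79b in 28.1% of the 64 cells. In the 86 of NK or ILC1-like clusters, 10 of 11 B lineage, 6 of 9 dendritic and 9 of 10 monocyte or macrophage markers were at 0, and the dendritic list stood at 94.1 CPM, with Batf3 at 86.0 CPM beside 42.2 CPM in fetal cells that were not class II-high. The part of these other cell types was not tested.

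The tissues were then compared within 4 classes of cells present in both. The summed class II level was lower in fetal liver in each of the 4. In LTi or ILC3-like cells it was 356 CPM in 1652 fetal cells and 23679 CPM in 152 bone marrow cells, a log2 ratio of -6.06 (-6.11 to -6.00), or 66.6-fold. In NK or ILC1-like cells (2854 and 661) it was 252 and 1057 CPM, a ratio of -2.07 (-2.13 to -2.01). In ILC2 progenitor-like cells (1643 and 2983) it was 15.3 and 161 CPM, a ratio of -3.40 (-3.58 to -3.22). In lymphoid progenitor-like cells (726 and 967) it was 40.4 and 130 CPM, a ratio of -1.68 (-1.86 to -1.51). Different clusters make up a class in each tissue, and the classes rest on rebuilt names. The fetal ILC2 progenitor-like level lay below the 31.1 CPM of unnamed fetal cluster 9, where erythroid and granulocyte genes led. Unnamed bone marrow cluster 11 stood at 72.8 CPM. The part of background in these levels was not tested.

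By gene, Cd74, H2-Aa, H2-Ab1, H2-Eb1, H2-DMa and H2-DMb1 were higher in bone marrow by at least 2-fold in 4 of 4 classes. The share of all genes past 2-fold within a class is not given, so whether this is particular to the members was not tested. The gap in LTi or ILC3-like cells ran from 46.7-fold for H2-DMa (5.14 and 240.3 CPM) to 102.2-fold for H2-Eb1 (28.4 and 2907 CPM) among members with over 50 UMIs in each tissue. H2-DMb1 rested on 4 fetal UMIs there. H2-DMb2 went the other way in lymphoid progenitor-like cells, with 40 fetal UMIs (3.98 CPM) and 11 bone marrow UMIs (1.57 CPM), a log2 ratio of 1.34 (0.35 to 2.45). Ciita in NK or ILC1-like cells had 26 fetal UMIs and 1 bone marrow UMI, a ratio of 1.62 whose interval (-0.99 to 6.97) holds 0.

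**Figure D4:**
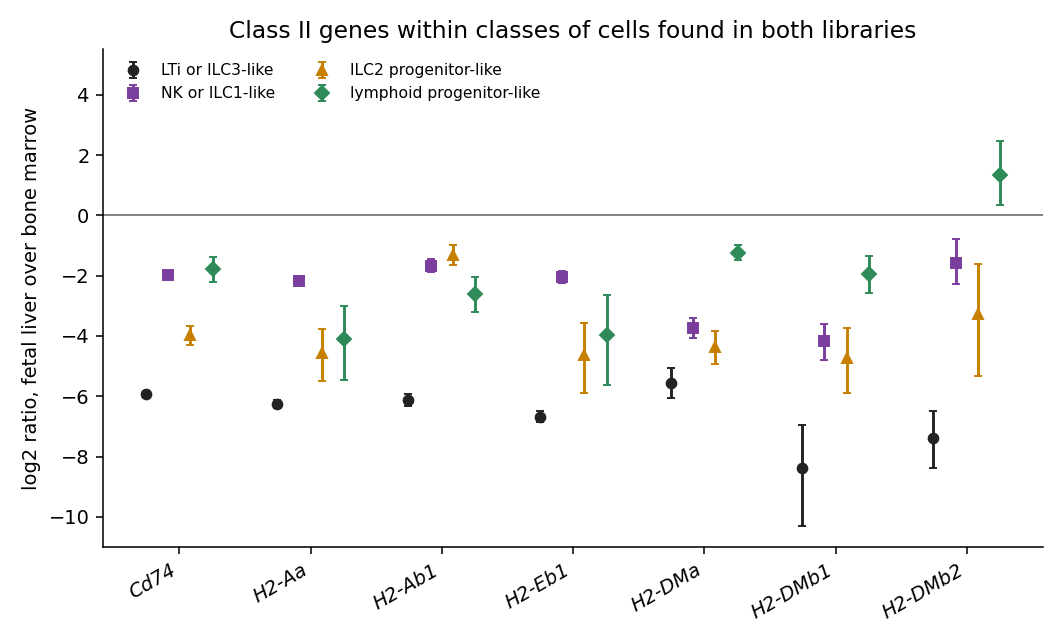
Log2 ratio, fetal liver over bone marrow, for each class II gene except Ciita within 4 classes of cells, with exact conditional 95% intervals of counting error; the line marks equal levels. Values lie below 0 except H2-DMb2 in lymphoid progenitor-like cells (1.34), and LTi or ILC3-like cells hold the lowest value of each gene, down to -8.38 for H2-DMb1.

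The Ciita UMIs did not follow the class II level evenly. In fetal liver, cluster 1 held 44.4% of the 72 Ciita UMIs and NK or ILC1-like cluster 2 held 26.4%, while NK or ILC1-like cluster 7, as high in class II as cluster 1, had 1 Ciita UMI. In bone marrow, cluster 10 held 24.1% of the 58 UMIs, cluster 2 held 32.8% and NK or ILC1-like cluster 6 had 1. B lineage-like fetal cluster 10 had 0 Ciita UMIs, below a floor of 1.54 CPM.

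The H2-DM genes were spread over the clusters in another way than Cd74. In fetal liver H2-DMa was at 45.7 CPM in B lineage-like cluster 10 and 21.3 CPM in lymphoid progenitor-like cluster 6, and at no more than 8.19 CPM in any other cluster. Cluster 9, led by erythroid and granulocyte genes, had an H2-DMa UMI in 11.6% of cells (1.68% thinned), and above it stood clusters 6 (19.0%, 3.99% thinned) and 10 (30.3%, 10.3% thinned), with cluster 7 above it after thinning only (5.64%, 1.94% thinned). Cluster 6 alone held 33.2% of the fetal H2-DMa UMIs and 1.00% of the Cd74 UMIs. It also held 23.4% of the H2-DMb1 and 25.2% of the H2-DMb2 UMIs, and cluster 10 had the highest level of both (4.62 and 13.9 CPM). In bone marrow every cluster had at least 20.7 CPM. Per 100 Cd74 UMIs there were 1.69 H2-DMa UMIs in bone marrow cluster 10 and 10.2 in cluster 6. There were 87.4 in cluster 9 and 296 in cluster 4, both lymphoid progenitor-like. High values were not limited to that class. ILC2 progenitor-like cluster 3 had 69.7 and ILC progenitor-like cluster 5 had 71.7. Unnamed cluster 11 had 350, on 7 H2-DMa and 2 Cd74 UMIs.

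H2-Ab1 also left the other chains in part of the fetal cells. Per 100 Cd74 UMIs there were 11.6 H2-Ab1 UMIs in fetal cluster 1 and 18.8 in cluster 7, and 167.5 and 171 in ILC2 progenitor-like clusters 5 and 8. H2-Aa did not shift in this way, with 22.7 in cluster 1 and 17.5 and 13.5 in clusters 5 and 8, the latter on 7 H2-Aa UMIs each. In unnamed cluster 9, where erythroid and granulocyte genes (Hbb-bs, Mpo, S100a8) led, 142 H2-Ab1 UMIs stood beside 35 of Cd74 and 6 of H2-Aa. The H2-Ab1 shares of clusters 5 and 8, 6.66% and 11.4% (0.829% and 1.52% thinned), lay below the 23.8% (1.92% thinned) of cluster 9, and expression of H2-Ab1 in them is not read from these shares. Cluster 9 was taken for comparison for its leading erythroid and granulocyte genes, and whether its cells express class II was not tested. Its H2-Ab1 UMIs outnumbered those of Cd74, unlike the whole fetal library (1495 and 7475 UMIs). Whether they are background was not tested. In cluster 9, Cd74 had a UMI in 2.83% of cells and in 0.240% after thinning, at a median of 19122 UMIs. The shares of cluster 1 were 24.6% and 14.9%, at a median of 5689 UMIs. The fetal ILC2 progenitor-like clusters, at 3.38% and 4.35% for Cd74 and medians of 10253.5 and 15620 UMIs, had 1.14% and 0.910% after thinning.

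In bone marrow the lowest summed class II level (72.8 CPM) was that of the 45 cells of cluster 11. In these cells 6 of 6 mast or basophil and 6 of 6 erythroid markers were raised, so cluster 11 was left unnamed. They had a median of 4022 UMIs, and Prss34, Car1, Pf4 and Mcpt8 were among their leading genes. Cd74 had a UMI in 1 of them (2.22%), beside 32.1% in NK or ILC1-like cluster 6 at a median of 4325 UMIs. H2-DMa had a UMI in 7 of them (15.6%, 6.49 to 29.5), in 23.9% of cluster 6 and in 7.45% of ILC2 progenitor-like cluster 1 at a median of 2078 UMIs. The H2-DMa shares of bone marrow clusters 1, 2, 3, 7 and 8 lay below that of cluster 11. After thinning, which left 36 cells of cluster 11 with a share of 11.1%, clusters 4 (9.49%), 5 (7.73%) and 9 (8.50%) lay below it too, cluster 6 stood at 12.3% and cluster 10 at 31.1%. Expression of H2-DMa outside cluster 10 is therefore not read from these shares. Whether the H2-DMa UMIs of cluster 11 are background was not tested.

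Genes outside the group whose levels followed the summed class II level most closely were sought among 6115 fetal liver and 6446 bone marrow genes. Pearson's r reached 0.2 for 6 genes in fetal liver, namely Pglyrp1 (0.25), Serpina3g (0.23), Tmem176b (0.22), Cd7 (0.22), Tmem176a (0.21) and Ltb (0.20). In bone marrow it did for Prr29 (0.35), Cd7 (0.35), Sdc4 (0.30), Batf3 (0.25), Tmem176b (0.25), Spry2 (0.23), Ncoa7 (0.22), Nrgn (0.22), Lst1 (0.21) and Tmem176a (0.20). Tmem176a, Tmem176b and Cd7 were in both lists. Tmem176b had a UMI in 99.3% of the cells of bone marrow cluster 10 and in 50.2% of other bone marrow cells, and Prr29 in 58.6% and 1.32%. These correlations are weak, and cells of a cluster share them.

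Other genes of the pathway differed in both directions. Of 16 genes for class II transcription, 14 reached 10 CPM. Of those, 3 were higher in fetal liver by at least 2-fold, beside 7.25% of all genes, and 2 in bone marrow, beside 10.9%, with a median log2 ratio of 0.21. The interferon γ receptor chain Ifngr1 (log2 ratio 1.39, 149 and 57.1 CPM) and the myeloid and B cell factor Spi1 (1.37, 20.8 and 8.05 CPM) were among those higher in fetal liver. The kinases Jak2 (-1.52) and Jak1 (-1.03) were higher in bone marrow. The RFX subunit genes Rfxap (0.22) and Rfxank (-0.22) and the NF-Y genes Nfya (-0.50), Nfyb (-0.17) and Nfyc (0.70), named after their values were seen, stayed within 2-fold. Rfx5, the DNA-binding RFX subunit, did not reach 10 CPM and had levels of 2.06 and 5.21 CPM (ratio -1.34, interval -1.65 to -1.02).

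Of 4 further class II locus genes 3 were in the files and 2 reached 10 CPM, both at least 2-fold higher in the marrow library (10.9% of all genes). H2-Ob and H2-Oa, the chains of H2-DO, which holds H2-DM back, were this pair. H2-Ob stood at 1.19 CPM in fetal liver against 29.2 CPM in bone marrow (log2 ratio -4.61, -4.91 to -4.32), and H2-Oa at 22.4 and 60.3 CPM (-1.43, -1.52 to -1.34). Of 12 processing and turnover genes 10 reached 10 CPM. Of those, 3 passed 2-fold toward fetal liver, beside 7.25% of all genes, and 2 toward bone marrow, beside 10.9%. The median log2 ratio of the 10 was 0.50. The thiol reductase Ifi30 (1.79), the protease Lgmn (1.29) and the protease Ctsl (1.01) were higher in fetal liver, and the receptors of the Cd74 ligand Mif, Cxcr4 (-2.54) and Cd44 (-1.09), in bone marrow. Of 7 costimulation genes only Cd274, encoding PD-L1, reached 10 CPM (7.16 and 10.4 CPM, ratio -0.54).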

How the data were processed

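The deposited matrices hold unnormalized UMI counts, with genes in rows and cell barcodes in columns. Per the labels' protocols, UMIs were counted from Chromium 3' libraries and the authors removed barcodes without a cell. The submitters' processing notes name mm10 and Seurat 4.0, without a role. The sources used here do not name the aligner. The deposited gene and barcode lists are identifiers (unit other).

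Members and gene lists were chosen with earlier results of these data known. Barcodes with under 500 genes or over 10% mitochondrial UMIs were left out (363 fetal liver, 109 bone marrow). No doublet caller was run, and 1 alternative left out the deepest 6% of cells. Summed counts were divided by library totals (CPM). Intervals are exact: conditional for ratios, Poisson for levels and Clopper-Pearson for shares. Ratios and intervals were tested on simulated data. For thinned shares each cell was drawn down to 2000 UMIs, leaving out shallower cells.

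Each library was clustered on its own: counts per 10000 UMIs on a log scale, 2000 variable genes before class II genes were left out, 30 principal components, 15 neighbours, Leiden resolution 1 (scanpy 1.11.5, leidenalg 0.10.2). A marker counted as raised at 10 CPM or more and 2-fold over the other cells, with 5 CPM added to both. A name needed 3 raised markers and 2 more than the next class. This rule was set after the data were seen. Classes were compared only if no cluster of the class led with more markers of another class, which left out ILC progenitor-like cells. The text names all members, up to 4 genes past 2-fold of each pathway list, and up to 10 genes per library with r of at least 0.2. A few genes chosen this way are not reported here. TMM factors came from edgeR 4.0.16.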

Additional observations from a re-analysis of the deposited data

How the results depend on the processing

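With 1 library per tissue, no value has a replicate check. The summed log2 ratio of -2.26 kept its sign under 10 alternatives and ran from -5.24 to -1.28. It was -2.10 with a median-ratio size factor and -2.13 with a TMM factor, which shifted every ratio by 0.16 and 0.14, -2.31 with cells weighing the same, -1.90 in cells with at least 1000 genes and -2.57 without the top 1% of cells. In alternatives added after the data were seen it was -1.28 without bone marrow cluster 10, -1.61 without LTi or ILC3-like clusters in both libraries and -5.24 with the 4 classes weighing the same. The members past 2-fold toward bone marrow numbered 4 to 8 over 12 alternatives. The count was 4 with a minimum of 50 CPM, which only those 4 members reached, and 8 of 8 with no minimum. The share of all genes past 2-fold (10.9%) is given for the main setting only, with a minimum of 10 CPM. Thinning lowered the share of cells with a class II UMI to 10.2% in fetal liver against 23.5% in bone marrow and gave 51.9% and 39.4% for the share of UMIs in the top 1% of cells. Without the deepest 6% of cells the share with a UMI was 24.8% and 33.4%. With cells ranked by class II UMIs per 10000 the top 1% held 45.3% and 31.0%. Class II-high cells were 3.31% and 6.34% with the cut at 0.1% of UMIs and 0.804% and 3.65% at 0.5%. In bone marrow cells with at least 1000 genes, the 3 shares were 39.3% with a UMI, 38.3% of UMIs in the top 1% and 4.90% class II-high. The leading fetal cluster held 33.5% of class II UMIs at Leiden resolution 0.5 and 20.1% at 2. No member's ratio changed sign. No paired analysis was possible because there was 1 library per tissue. Low counts limit Ciita, H2-DMb1 and H2-DMb2, which had 72, 141 and 159 UMIs in fetal liver.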

Other observations

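T cell costimulation genes had few UMIs in bone marrow cluster 10, the cluster highest in class II, though some stood above the rest of the library. In bone marrow cluster 10, Cd40 had 11 UMIs (25.9 CPM) and 0 in all other bone marrow cells, and Icosl had 10 UMIs there and 31 elsewhere, a log2 ratio of cluster over rest of 4.49 (3.29 to 5.55). Tnfsf4 had 3 UMIs there and 7 elsewhere, a ratio of 4.90 (2.31 to 7.03). Cd274 had 2 UMIs there and 309 elsewhere, a ratio of -1.15 (-4.20 to 0.71). Cd80 had 1 UMI and Cd86 0 UMIs in the cluster, below a floor of 7.07 CPM. The invariant chain protease gene Ctss stood at 221 CPM there and 35.4 CPM in the rest, a log2 ratio of 2.64 (2.32 to 2.95), and Ifngr1 at 276 and 53.9 CPM, a ratio of 2.35 (2.07 to 2.62). H2-Oa stood at 207 and 58.2 CPM. These genes were chosen after their values were seen, and the cells were clustered on the same counts, so the ratios are descriptions.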
